A study of Mus musculus with 16 samples.

Results

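Interferon response genes were followed in mouse cochleae by microarray. The genes were Isg15, Irf7, Ifit1, Ifit3, Oasl2, Usp18, Bst2, Gbp2 and Rsad2, and a probe was taken where the array's annotation gave 1 of these symbols and no other. This rule found 11 of the 34958 probes with a single symbol, and they measured 8 of the 9 genes. The probe of Isg15 carries a second symbol, so no level of Isg15 is given. Each array measured RNA from 1 whole left cochlea of 1 male DBA/2J mouse, an inbred strain with early progressive hearing loss that carries hearing loss alleles of Cdh23 and Fscn2 in all 3 groups. The M+V arrays came from 6 mice aged 12 weeks, which had been injected under the skin every day for 8 weeks with L-methionine (MET, a methyl donor) at 500 mg/kg and valproic acid (VPA, an inhibitor of histone deacetylases) at 300 mg/kg. The control arrays came from 5 mice aged 12 weeks that received the vehicle, 0.1 M sodium bicarbonate, for the same 8 weeks, and the 4 weeks arrays came from 5 mice of that age, before any injection. M+V against control is therefore a comparison of treatment at 1 age, whereas both comparisons with 4 weeks also hold age and the injections.

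Type I interferons are secreted when cells sense foreign or misplaced nucleic acid. They bind the receptor made of Ifnar1 and Ifnar2, the kinases Jak1 and Tyk2 then set off a complex of transcription factors that holds Stat2 and Irf9 and binds the interferon-stimulated response element (ISRE) in the promoters of a large set of genes. Several of the products act on viral RNA or on virus release, others end the response, and a low level of the same genes is known in many tissues without infection.

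The promoters show what the genes share at the sequence level. The letters searched for the ISRE were GAAA, any 2 bases and GAAA again, or on the other strand TTTC, any 2 bases and TTTC. They were looked for in the 250 bases before the start of each gene in RefSeq promoters of mouse build GRCm38.p6. A window was found for 8 of the 9 genes, all but Usp18, and 6 of these 8 held at least 1 match, against 2.98% of the 32851 windows in the table. Isg15, Ifit1, Ifit3, Bst2, Gbp2 and Rsad2 held a match, and Irf7 and Oasl2 did not. 5 of the matched stretches are printed below because the genes differ in how they behaved across the arrays, with each match in capitals and the gene's own strand read 5′ to 3′. They lie at chr19:34640770-34640828 (+) for Ifit1, chr19:34583358-34583431 (+) for Ifit3, chr8:71537572-71537617 (-) for Bst2, chr3:142620589-142620628 (+) for Gbp2 and chr12:26456548-26456587 (-) for Rsad2.
Ifit1: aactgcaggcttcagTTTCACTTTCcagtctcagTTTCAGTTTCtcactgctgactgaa
Ifit3: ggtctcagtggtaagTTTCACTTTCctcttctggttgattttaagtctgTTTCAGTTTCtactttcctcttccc
Bst2: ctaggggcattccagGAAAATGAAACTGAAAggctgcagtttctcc
Gbp2: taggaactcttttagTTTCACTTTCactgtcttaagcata
Rsad2: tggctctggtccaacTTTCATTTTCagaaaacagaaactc
Ifit1 and Ifit3, which lie near each other on chromosome 19, each held 2 separate matches on the same strand. The 2 matches of Bst2 overlap. Gbp2 and Rsad2 held 1 match each. A match is a description of the letters and not a measured binding site.

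Values are deposited log2 signals after quantile normalization, so that 1 unit is a doubling, and the median of every array was 6.90. The defining genes of the tissue were bright in every array, with Coch between 14.84 and 15.42 and Otos between 13.82 and 14.88, and 10 of 12 cochlear markers reached the filter. The hybridisation control bioB, a transcript added to each sample, split the arrays into 8 with a signal of 8.91 to 9.62 and 8 with a signal of 5.73 to 6.08. The high arrays were M+V 1 and 2, control 1 and all 5 arrays of 4 weeks, so this split cannot be told apart from the 4 weeks group for most arrays, and values with bioB as a block are given where they change a result. M+V 1 stood apart in the markers of several cell types, most of all in erythroid markers, which are given with Rsad2. Whole cochleae were measured, so fewer cells of a type and less RNA per cell cannot be told apart.

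Irf7 is the transcription factor that amplifies interferon production, and Oasl2 is an oligoadenylate synthetase-like protein that binds RNA. Irf7 ran from 7.41 to 8.66 with a median of 8.34 in M+V-treated cochleae. It was 8.25, 8.29, 8.56, 8.47 and 8.28 in control cochleae 1 to 5, against 7.73, 7.67, 8.02, 8.03 and 8.07 in 4 weeks cochleae 1 to 5. Every control array was above every 4 weeks array, and M+V 1 was the lowest of all 16 arrays while the other M+V arrays were above every 4 weeks array. Oasl2 ran from 7.91 to 8.70 with a median of 8.57 in M+V-treated cochleae. It was 8.52, 8.11, 9.18, 7.92 and 8.11 in control cochleae, against 7.32, 7.51, 8.13, 7.45 and 8.04 in 4 weeks cochleae. In 5 of the 6 M+V arrays Oasl2 was above every 4 weeks array, and M+V 3 was inside their range.

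**Figure D1:**
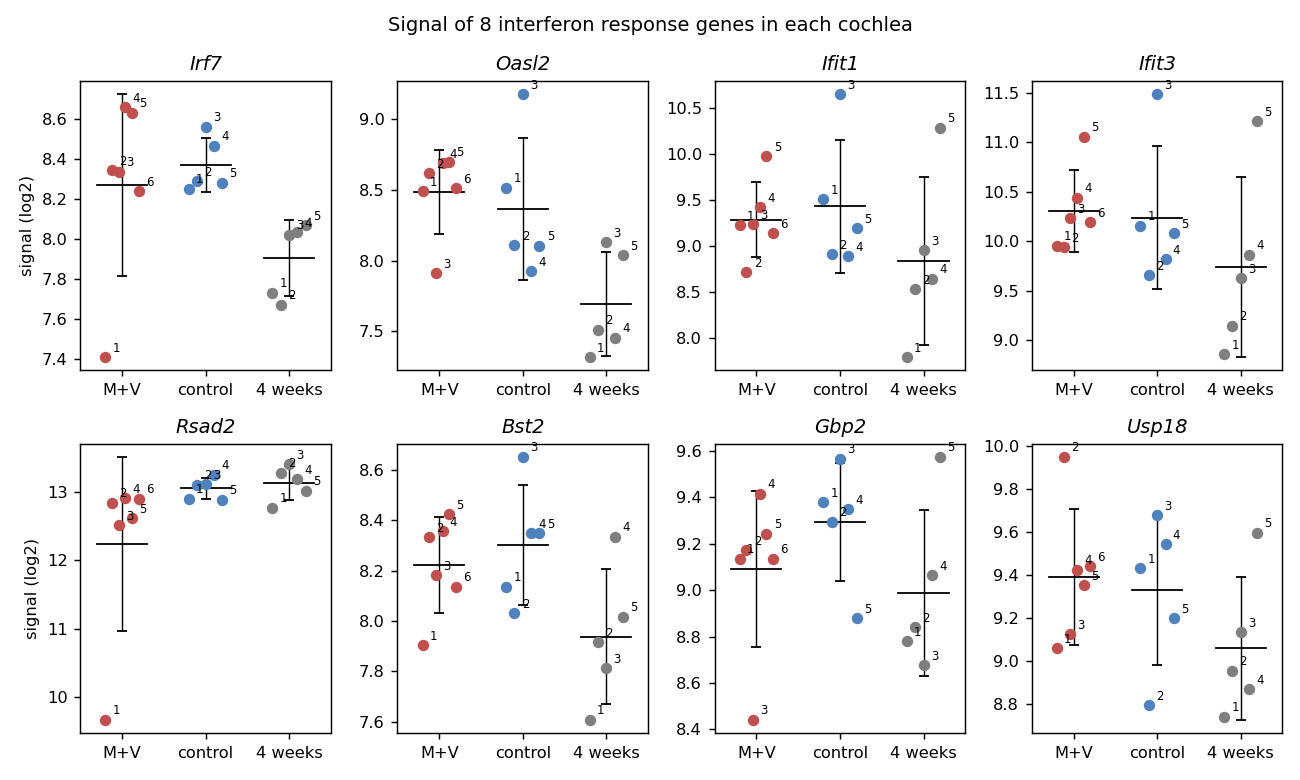
Signal (log2, y axis) of the 8 genes in each cochlea of the M+V, control and 4 weeks groups. Points are arrays with their replicate number, horizontal lines are group means and bars are 1 SD (n = 6, 5 and 5); control 3 and 4 weeks 5 stand at the top of Ifit1 and Ifit3, and M+V 1 lies far below all other arrays for Rsad2.

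Ifit1 and Ifit3 encode tetratricopeptide proteins that hold back the translation of viral RNA. Ifit1 ran from 8.72 to 9.97 with a median of 9.23 in M+V-treated cochleae. It was 9.51, 8.91, 10.65, 8.89 and 9.19 in control cochleae, against 7.80, 8.53, 8.96, 8.65 and 10.28 in 4 weeks cochleae. Ifit1 was thus high in 1 mouse of each group, M+V 5, control 3 and 4 weeks 5, and the groups overlapped widely. Ifit3 was highest in the same 3 arrays, at 11.06 in M+V 5, 11.48 in control 3 and 11.21 in 4 weeks 5. In the remaining arrays it ran from 9.94 to 10.44 in M+V-treated cochleae, from 9.65 to 10.16 in control cochleae and from 8.86 to 9.86 in 4 weeks cochleae.

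Rsad2 encodes viperin, a radical SAM enzyme that makes a chain-terminating nucleotide. It ran from 9.67 to 12.91 with a median of 12.73 in M+V-treated cochleae. It was 12.90, 13.11, 13.12, 13.26 and 12.89 in control cochleae, against 12.77, 13.28, 13.41, 13.19 and 13.02 in 4 weeks cochleae. The low end was M+V 1 alone, and the other 5 M+V arrays lay between 12.51 and 12.91.

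Bst2 encodes tetherin, which holds budding virus at the cell surface, Gbp2 encodes a guanylate-binding GTPase, and Usp18 encodes the protease that removes Isg15 from proteins and dampens the receptor. Bst2 ran from 7.90 to 8.42 with a median of 8.26 in M+V-treated cochleae, from 8.03 to 8.65 with a median of 8.35 in control cochleae, and from 7.61 to 8.33 with a median of 7.92 in 4 weeks cochleae. Gbp2 ran from 8.44 to 9.42 with a median of 9.15 in M+V-treated cochleae, from 8.88 to 9.57 with a median of 9.35 in control cochleae, and from 8.68 to 9.57 with a median of 8.84 in 4 weeks cochleae. Usp18 ran from 9.06 to 9.95 with a median of 9.39 in M+V-treated cochleae, from 8.79 to 9.68 with a median of 9.43 in control cochleae, and from 8.74 to 9.60 with a median of 8.95 in 4 weeks cochleae. For these 3 genes all groups overlapped. The reported probe of Gbp2 is of a class that may also bind related transcripts, and a second probe of Gbp2 followed it with r = 0.827 over the 16 arrays.

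None of the 8 genes passed the test in M+V against control (limma, Benjamini-Hochberg adjusted p under 0.05). There 0% of all 21391 tested probes were called, so this count is not particular to these genes. Of the 8 reported probes, 0 had an unadjusted p under 0.05, against 9.8% of all probes. The methods' t-test called 0 of them as well, and 0 of all tested probes. 3 of the 8 genes were higher in M+V and the median difference was -0.09 in log2 units, beside 0.02 for all tested genes. The best bounded gene was Bst2, at -0.08 (95% interval -0.37 to 0.21, limma adjusted p = 0.872). Irf7 differed by -0.10 (-0.47 to 0.27), Oasl2 by 0.12 (-0.34 to 0.58), Usp18 by 0.06 (-0.33 to 0.46) and Gbp2 by -0.20 (-0.58 to 0.18). The intervals of Ifit1, -0.14 (-0.94 to 0.65), and Ifit3, 0.06 (-0.73 to 0.86), were the widest of the 7 genes other than Rsad2, and differences inside such bounds were not detectable with these arrays. Rsad2 differed by -0.81 (-1.73 to 0.11, limma adjusted p = 0.561), and without M+V 1 by -0.30. Another probe of Rsad2 was 1.86-fold lower in M+V, at -0.89 (-1.73 to -0.05). Its unadjusted p was 0.0388 in limma, with an adjusted p of 0.490.

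**Figure D2:**
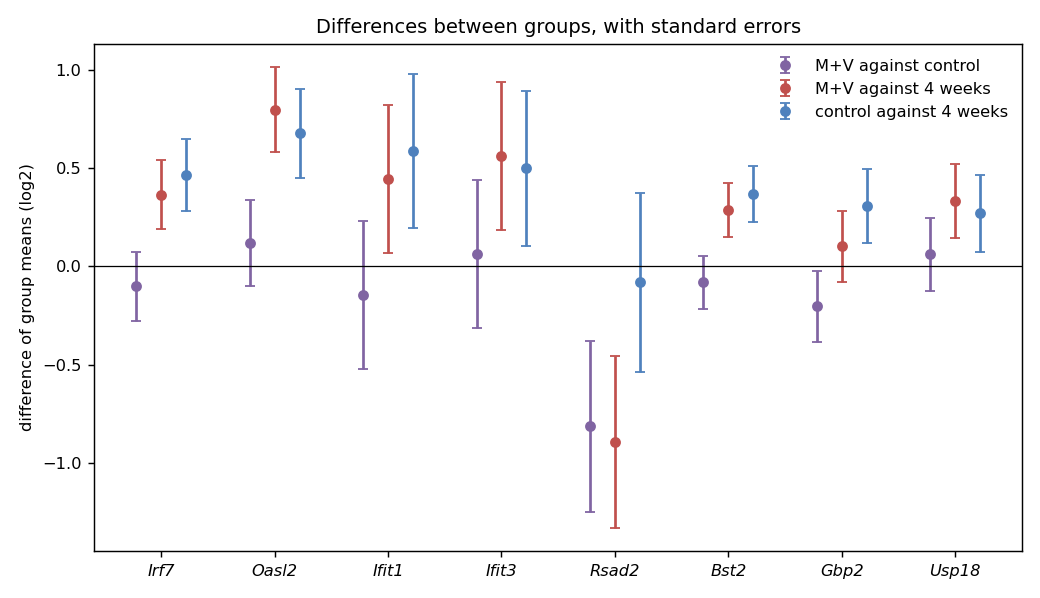
Difference of group means (log2, y axis) of each gene in the 3 comparisons, M+V against control (purple), M+V against 4 weeks (red) and control against 4 weeks (blue), with bars of 1 standard error from limma. 7 of the 8 genes lie above 0 in both comparisons with 4 weeks, and Rsad2 lies below 0 in all 3 comparisons.

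Against 4 weeks, 1 gene rose in M+V-treated cochleae. Oasl2 averaged 8.49 ± 0.29 in M+V and 7.69 ± 0.37 in 4 weeks cochleae (SD, n = 6 and 5), a difference of 0.80 (SE 0.22, limma adjusted p = 0.0422) or 1.74-fold, where 2.08% of all tested probes were called higher and 5.28% in either direction. 7 of the 8 genes had a positive difference, with a median of 0.35 against 0.03 over all tested genes. The difference of Oasl2 was as large with bioB as a block (0.88, limma adjusted p = 0.0654) and among high bioB arrays (0.86, limma adjusted p = 0.0724), but neither of these passed the threshold. Of 16 fits with 1 array left out, 7 kept the call of Oasl2. It was lost without 4 weeks 1 (adjusted p = 0.109), 4 weeks 2 (0.0886), 4 weeks 4 (0.101), control 2 (0.0505), control 5 (0.0517), M+V 2 (0.0746), M+V 4 (0.0803), M+V 5 (0.0790) or M+V 6 (0.0706), with differences of 0.70 to 0.91 over all 16 fits. Irf7 differed by 0.36 (SE 0.18, limma adjusted p = 0.233), and without M+V 1 by 0.54 (limma adjusted p = 0.00968). With bioB as a block the difference of Irf7 was 0.08 (limma adjusted p = 0.824), and its relation to the bioB level was not tested further. Of the M+V arrays with high bioB, M+V 1 was at 7.41 and M+V 2 at 8.35, beside a 4 weeks mean of 7.91. The remaining genes ran from 0.10 in Gbp2 to 0.56 in Ifit3 above 0, and Rsad2 was at -0.89 (-1.81 to 0.03), or -0.38 without M+V 1. With bioB as a block Rsad2 was at -1.56, a fit in which M+V 1 is 1 of only 2 M+V arrays of high bioB.

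Control cochleae were set against the same 4 weeks arrays as the M+V-treated ones. None of the 8 genes passed the test in control against 4 weeks, where 0.369% of tested probes were called higher and 1.38% in either direction. Irf7 (0.46, SE 0.18), Oasl2 (0.68, SE 0.23) and Bst2 (0.37, SE 0.14) had an unadjusted p under 0.05 in limma, 3 of 8 genes against 13.8% of all probes, with adjusted p of 0.259, 0.176 and 0.251. Oasl2 alone passed the study's cutoffs of a fold over 1.5 with an unadjusted p under 0.05, which 1.03% of probes passed in this direction. Irf7 was the only gene whose arrays did not overlap between control and 4 weeks, as did 1.96% of probes in this direction. It passed the test when M+V 1 was left out (limma adjusted p = 0.0366), a fit in which only the shared estimate of spread changed. With bioB as a block its difference was 0.13 (limma adjusted p = 0.845). The low M+V 1 enters the bioB difference of that fit, and its part in the result was not tested. Only control 1 could be set against 4 weeks within the high bioB arrays, at 8.25 beside a 4 weeks mean of 7.91. 7 of the 8 genes were above 0, with a median of 0.42 against 0.01 over all genes, and Rsad2 was at -0.08 (-1.04 to 0.88). With bioB as a block Rsad2 was at -0.88, a fit in which M+V 1 enters the bioB difference as well, and its part was not tested. Within the high bioB arrays Rsad2 was at 12.90 in control 1, beside a mean of 13.13 in 4 weeks cochleae.

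Mice of 1 group spread more widely than the group means. Over the 7 genes other than Rsad2, each array's mean deviation from the genes' own means ran from -0.15 to 0.45 in M+V, from -0.17 to 0.79 in control and from -0.77 to 0.36 in 4 weeks cochleae, with group means of 0.12, 0.16 and -0.30. Control 3 was highest, with all 8 genes above their means, followed by M+V 5 and 4 weeks 5, and 4 weeks 1 was lowest with 0 of 8 genes above. In 4 weeks 5 the genes were uneven. Ifit1 and Ifit3 were 1.09 and 1.10 above their means there, whereas Irf7 was at -0.12 and Oasl2 at -0.16. After each group's mean was subtracted, Ifit1 and Ifit3 had r = 0.96 across the 16 arrays. The 21 pairs of the 7 genes then had r between 0.25 and 0.96 with a median of 0.54. These are descriptions over arrays that share groups and normalization.

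**Figure D3:**
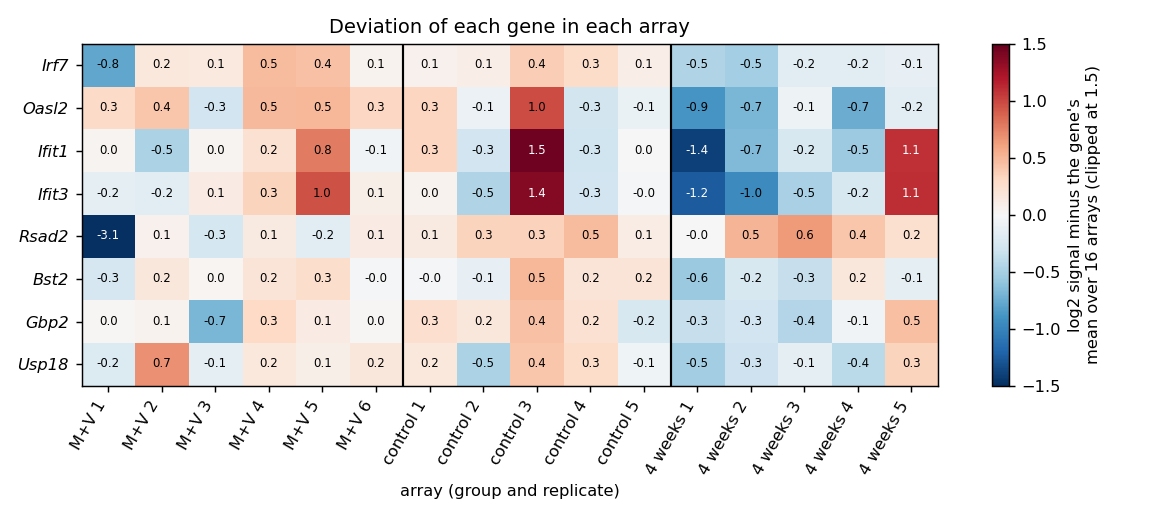
Deviation of each gene (rows) in each array (columns, M+V then control then 4 weeks) from the gene's mean over the 16 arrays, in log2 units, with colours clipped at 1.5. Control 3, M+V 5 and 4 weeks 5 are red for Ifit1 and Ifit3, and the Rsad2 cell of M+V 1 is at -3.1.

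The chemokines Cxcl10 and Cxcl11, which draw T cells through the receptor Cxcr3, singled out the same mice. Both were under the filter and so were not tested, and Cxcl11 was named after its values were seen. Cxcl10 was 7.93 in M+V 5, 9.02 in control 3 and 9.42 in 4 weeks 5, and its group medians were 6.97 in M+V, 7.05 in control and 6.57 in 4 weeks cochleae. Cxcl11 was 7.75 in M+V 5, 8.91 in control 3 and 9.14 in 4 weeks 5, beside medians of 7.18, 7.17 and 6.87. Cxcl10 and Cxcl11 had r = 0.781 and 0.801 with the mean of the 7 genes over 16 arrays, here without subtracting group means. Cxcl9, another chemokine induced by interferon, was instead under its group median in control 3 (6.91, median 7.45) and 4 weeks 5 (5.85, median 6.79). In M+V 5 it was above its group median (7.15, median 6.85).

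Rsad2 did not follow the other members. With group means subtracted, its 7 pairs with them had a median r of 0.14. The highest of these pairs, 0.85 with Irf7, was 0.50 without M+V 1. All 3 probes of Rsad2 were low in M+V 1, at 9.67, 7.94 and 7.41. Without subtracting group means, the other probes had r = 0.989 and 0.988 with the reported one. The same array was low in the erythroid markers Alas2 (4.02), the heme synthesis enzyme of red cell precursors, Slc4a1 (5.22), the band 3 anion exchanger, Epb42 (3.48), a membrane skeleton protein, and Klf1 (2.88), the erythroid transcription factor. These 4 genes lay between 8.67 and 13.5 in the other 15 arrays. Hba-a1, the remaining marker with a probe, was between 0.98 and 5.26 in all arrays, under the filter. The log2 of the summed signal of the list was 6.24 in M+V 1, and in the other arrays it ran up to 14.1 in M+V, from 13.8 to 14.5 in control and from 13.6 to 14.4 in 4 weeks cochleae. The 10 genes most like Rsad2 over 16 arrays, of 11449 compared, were Trim10 (r = 0.989), Alas2 (0.988), Kel, Slc4a1, Hbb-b2, Rhd, Klf1, Hemgn, Btnl10 and Rhag, many of them known from red cell precursors. Without M+V 1 none of the tested erythroid markers was among the first 10, which were led by Ncoa4 (r = 0.876), and the markers had r between 0.63 and 0.78. M+V 1 was also the lowest of the 16 arrays in the mean deviation of the B cell list (-1.66, against -0.70 to 0.59 in the other arrays) and of the lists of plasmacytoid dendritic cells (-0.89, against -0.81 to 0.34), brain glia (-0.97, against -0.90 to 0.54) and the cochlea (-0.54, against -0.27 to 0.55), and the highest in those of macrophages (0.57, against -0.47 to 0.22) and endothelium (0.20, against -0.25 to 0.13). Vpreb3, a surrogate light chain protein of B cell precursors, was at 6.43 in M+V 1 and at 9.28 to 10.17 elsewhere. The B cell list had r = 0.826 with Rsad2 and the dendritic cell list r = 0.724, or 0.408 and 0.670 without M+V 1. The part of red cell precursors or of any other cell type in the level of Rsad2 was not tested.

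**Figure D4:**
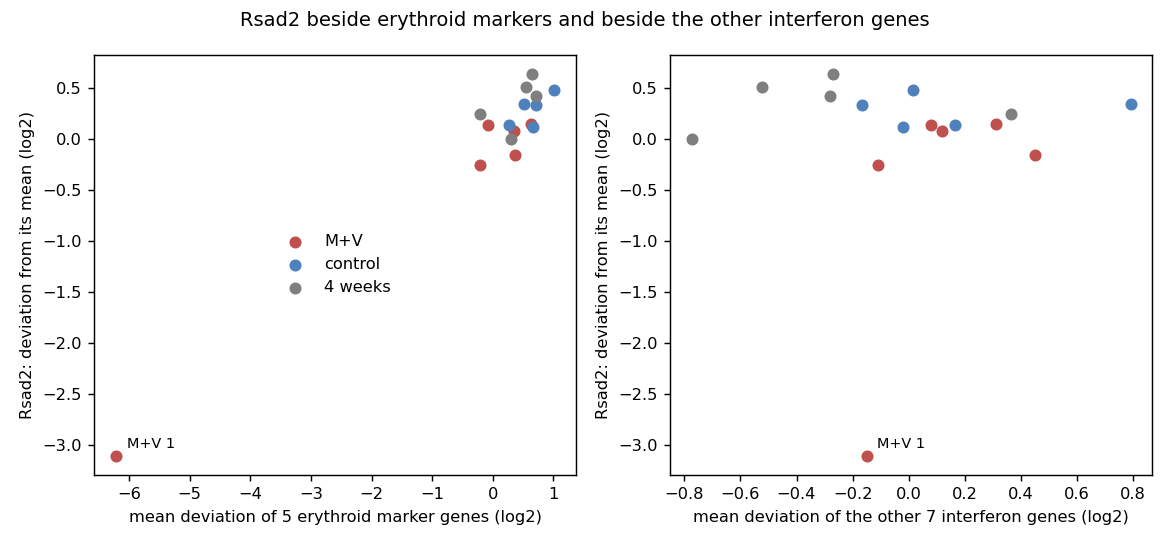
Deviation of Rsad2 from its mean (log2, y axis) against the mean deviation of the erythroid markers (left) and of the other 7 interferon genes (right), with 1 point per array for M+V, control and 4 weeks. M+V 1 is at the low end of both axes on the left, and on the right it lies within the range of the other genes.

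Isg20 and Ube2l6, the tested pathway genes most like Rsad2 over 16 arrays, were low in M+V 1 as well. Other pathway genes were instead at their highest of the 16 arrays in M+V 1, among them Slfn2 (11.19), Socs3 (11.10), Myd88 (10.54) and Ifngr1 (11.14). Isg20, an exonuclease of single-stranded RNA, was at 8.23 in M+V 1 and had a median of 11.22 in M+V, 11.38 in control and 11.75 in 4 weeks cochleae. Ube2l6, the enzyme that passes Isg15 to its targets, was at 7.17 in M+V 1, with medians of 9.17, 9.68 and 9.13. Isg20, Slfn2, Socs3, Myd88 and Ifngr1 were named after their values were seen. Isg20 and Ube2l6 had r = 0.970 and 0.931 with Rsad2 over 16 arrays, and 0.779 and 0.830 without M+V 1. Cmpk2, a nucleotide kinase whose gene adjoins Rsad2 on chromosome 12 with 0 protein-coding genes between, was instead at 9.26 in M+V 1, beside a median of 9.26 in M+V, 9.27 in control and 9.16 in 4 weeks cochleae. Cmpk2 had r = 0.12 with Rsad2 and r = 0.895 with the mean of the other 7 genes, the highest of 11449 genes. Next to Cmpk2 by that measure came Hsp90aa1, Tlcd4, Sppl2a, Adgrg6, Irgm1, Iigp1, Mdh1, Cox5a and Rtp4. Genes of the pathway lists made up 4 of the first 10 and 11 of the first 100, against 82 of all 11449 compared. The median r of these 82 was 0.18, beside -0.03 over all genes. By likeness to the mean of all 8 genes, the first 10 were Rtp4 (r = 0.870), Cep162, Tlcd4, Hsp90aa1, Irgm2, Adgrg6, Prkaca, Cmpk2, Sec61a2 and Cct3. The ISRE letters were not in the searched window of Cmpk2.

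The pathway around these genes was described from 10 lists of 120 genes, of which 105 had a probe of their own and 82 were tested. In M+V against control limma called 0 of the 82, where 0% of all tested probes were called. 37 of the 82 were above 0, against 54.9% of all tested genes, with a median of -0.01, against 0.02. 3 of the 82 were lower by the study's cutoffs, which 1.34% of all probes passed in this direction. Of the ligands, 6 had a probe and 0 reached the filter, among them Ifnb1 and Ifng. The receptor chains Ifnar1 (9.28 in M+V, 9.31 in control and 9.41 in 4 weeks cochleae on average) and Ifnar2 (10.75, 10.79 and 10.76) differed by at most 0.13 between any groups and passed no test. Irf9, the DNA-binding partner of Stat2, differed by -0.10 in M+V against control and by 0.02 and 0.13 against 4 weeks, and Irf1 by 0.07, 0.27 and 0.19. Stat2, Mx2, Zbp1 and Socs1 were under the filter, and Ifi44 is not analysed here.

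In M+V-treated cochleae against 4 weeks 7 of the 82 rose, among them 3 Ifitm genes and 2 genes of class I antigen processing, and 1 fell, where 2.08% of all tested probes were called higher and 3.2% lower. 66 of the 82 were above 0, against 55.0% of all tested genes, and their median was 0.19, against 0.03. Ifitm3, which blocks virus entry at the endosome, ran from 12.93 to 13.37 in M+V (median 13.14) and from 12.48 to 12.68 in 4 weeks cochleae (median 12.60), with no overlap, as in 1.99% of all tested probes in this direction. The difference was 0.58 (limma adjusted p = 0.00247). Its neighbours in function Ifitm1 (0.76, limma adjusted p = 0.00779) and Ifitm2 (0.59, 0.0128) rose too. In M+V against control Ifitm1 was at 0.53 (limma adjusted p = 0.381), Ifitm2 at 0.16 and Ifitm3 at 0.08. In control against 4 weeks Ifitm1 was at 0.22 (limma adjusted p = 0.559), Ifitm2 at 0.43 and Ifitm3 at 0.50. H2-D1, a class I heavy chain, rose by 0.52 (limma adjusted p = 0.00928) and Tap2, a subunit of the peptide transporter, by 0.49 (0.0431). Lgals3bp, a secreted glycoprotein, rose by 0.51 (limma adjusted p = 0.0492) and Ticam1, the adaptor of Tlr3, by 0.51 (0.036). Irf4, a factor of B cells and plasma cells, fell by 1.27 (limma adjusted p = 0.0496), beside a B cell marker list whose log2 summed signal was 12.0 to 13.3 in M+V and 13.0 to 13.7 in 4 weeks cochleae. Neutrophil markers also moved here, with 3 of 8 called higher (Prtn3, Elane and Mpo) and a log2 summed signal of 17.3 to 17.6 in M+V and 17.1 to 17.4 in 4 weeks cochleae. Of the other lists, Nkg7 of T and NK cells was called higher and Cx3cr1 of macrophages lower. The part of any cell type in these results was not tested. The number of genes that rose was 16 without M+V 3 and 11 without M+V 1, and it was 4 without 4 weeks 2, 4 weeks 4, M+V 2 or M+V 6. The calls over all tested probes moved as well. They were 445 higher with all arrays, 863 without M+V 3 and 599 without M+V 1. In the fits where 4 genes rose they were 316, 208, 310 and 288, in the order named. Ifitm1, Ifitm2, Ifitm3 and H2-D1 were called in each of the 16 fits that left out 1 array, Ticam1 in 11, Tap2 in 3 and Lgals3bp in 2. Irf4 was called in 2 of them, without M+V 5 or M+V 6, and its limma adjusted p over the 16 fits ran from 0.0298 to 0.114.

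In control against 4 weeks 4 of the 82 rose, where 0.369% of all tested probes were called higher, and 0 fell. 65 of the 82 were above 0, against 52.0% of all tested genes, and their median was 0.16, against 0.01. Ifitm3 rose by 0.50 (limma adjusted p = 0.0147), Xaf1, an apoptosis-related effector, by 0.50 (0.0178), Ly6e, a surface protein that blocks virus fusion, by 0.56 (0.0463) and Lgals3bp by 0.63 (0.0473). Xaf1 ran from 11.10 to 11.50 in control cochleae and from 10.72 to 11.01 in 4 weeks cochleae, with no overlap, as in 1.96% of all probes in this direction. Beside these genes, the neutrophil list had a median deviation of 0.12 in control and -0.35 in 4 weeks cochleae, with Prtn3 called higher. The T and NK cell list was at 0.18 in control and -0.25 in 4 weeks cochleae. Of its 8 markers only 3 reached the filter, and 0 of these were called. The part of neutrophils, T cells or NK cells was not tested. All 11 tested genes of class I antigen processing were above 0 in both comparisons with 4 weeks, with medians of 0.28 for M+V and 0.33 for control, and the 2 calls in M+V were H2-D1 and Tap2. With bioB as a block all 11 stayed above 0 in M+V and 10 in control, where Tap2 was at -0.01 (limma adjusted p = 0.978) in place of 0.31. B2m, the light chain, differed by 0.02 in M+V and 0.20 in control, Tap1 by 0.21 and 0.26, and the immunoproteasome subunit Psmb8 by 0.42 and 0.34, without passing the test. With bioB as a block 4 pathway genes rose and 1 fell in M+V against 4 weeks, Ifitm3 (0.62) and Ifitm1 (1.05) among those that rose. Of all tested probes 581 were called higher in that fit and 846 lower. Ifitm2 (0.50, limma adjusted p = 0.0622), Ticam1 (0.56, 0.0584), Lgals3bp (0.34, 0.224) and Tap2 (0.22, 0.295) were then no longer called. In control against 4 weeks the block left 0 pathway genes called, where 36 of all tested probes were called higher and 134 lower. Ifitm3 was then at 0.56 (limma adjusted p = 0.0542), Xaf1 at 0.51 (0.0895), Lgals3bp at 0.43 (0.318) and Ly6e at 0.30 (0.387). The number of genes that rose in control against 4 weeks was 7 without M+V 1 or M+V 3, 2 without 4 weeks 2, 3, 4 or 5, M+V 2, M+V 6, control 2 or control 5, and 1 without 4 weeks 1, control 3 or control 4. Over all tested probes 79 were called higher with all arrays, 161 without M+V 1 and 115 without M+V 3. The fits where 2 genes rose called 35 to 81 probes higher. Those without 4 weeks 1, control 3 and control 4 called 36, 35 and 36. Ifitm3 was called in all 16 fits that left out 1 array, Xaf1 in 13, Ly6e in 5 and Lgals3bp in 2.

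**Figure D5:**
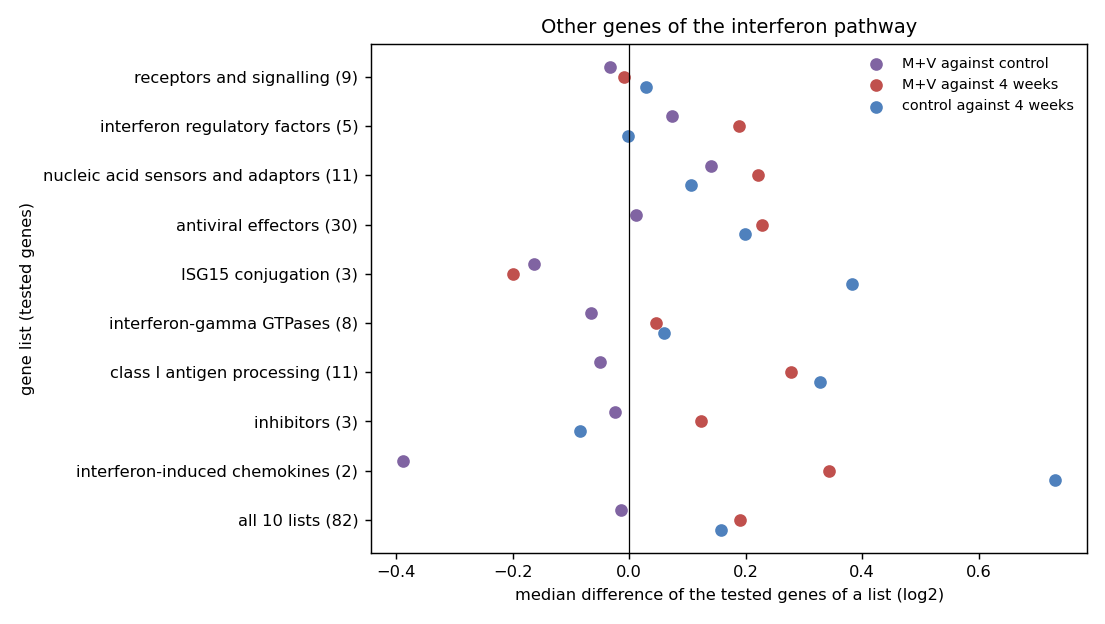
Median difference (log2, x axis) of the tested genes of each list around the interferon response (y axis, number of tested genes in brackets) in M+V against control (purple), M+V against 4 weeks (red) and control against 4 weeks (blue). Class I antigen processing lies at 0.28 and 0.33 against 4 weeks and at -0.05 in M+V against control.

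Other named effectors showed no call. Ifit2 differed by 0.02 in M+V against control, Oas2 by 0.08, Eif2ak2, the kinase PKR, by -0.23, Ifih1, the sensor MDA5, by 0.14, and Ddx58, the sensor RIG-I, by 0.05. Against 4 weeks Ddx58 differed by 0.42 in M+V and 0.37 in control, Eif2ak2 by 0.13 and 0.35, and Oas2 by 0.22 and 0.15. Gbp3 differed by -0.01 in M+V against control and by 0.50 and 0.51 against 4 weeks, and Irgm1, an immunity-related GTPase, by 0.03, 0.08 and 0.05. Uba7, the activating enzyme for Isg15, differed by -0.05, 0.33 and 0.38.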

How the data were processed

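The samples were 16 mouse cochleae on an Affymetrix mouse genome expression array. The deposited log2 values are signals that the authors extracted with GCOS and MAS5, whose versions are not given in the sources used here, and quantile-normalized in R. They ran from -3.31 to 15.4, and 0.869% lay under a signal of 1 and were set to 1. Quantile normalization gives every array the same distribution, so differences are relative to it. Of 45101 probes, 64 are control probes and were not tested, and 34958 had 1 gene symbol, 932 several and 9211 none. Gene identifiers of 34754 probes were found in RefSeq and 0 symbols changed.

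The authors tested probes called present in every sample of a group. In place of these calls, the filter here kept probes at or above the array median in all arrays of some group, 21391 probes of 11457 genes. Group means over all arrays were modelled in R 4.3.3 using limma 3.58.1 (lmFit, contrasts.fit and eBayes), two-sided, with Benjamini-Hochberg adjustment over all tested probes and a threshold of 0.05, and it was tested on simulated data. The methods' t-test (Welch) was run on the same values. For a gene with several tested probes the brightest is given. Members, lists and tests were chosen with earlier results of these data known. Named genes are the members, core genes of each pathway role, called pathway genes and the 10 genes most like the members. Likeness is Pearson's r over the 16 arrays between a gene and the mean deviation of the members. Likeness to Rsad2 alone and to the other 7 genes was added after the values were seen.

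Alternatives were cyclic loess, log2(signal + 32), no filter, a filter at the 25th or at the 75th percentile, the t-test of the methods, only the compared groups, array weights, blocks for the replicate number and for bioB, each bioB level alone, other probes of a gene and leaving out each array. Replicate numbers did not pair the arrays. The number of arrays limits the precision. Correlations between arrays ran from 0.911 to 0.954, so none was a copy of another.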

Additional observations from a re-analysis of the deposited data

Results flagged for a closer look

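Of 30 groups of values checked, 5 held an array that stood apart from its group by Dixon's ratio, and chance flags about 1 in 20 groups. 2 of them were in M+V 1. Rsad2 was at 9.67 there, while the other M+V arrays lay between 12.5 and 12.9, and Irf7 was at 7.41, while the others lay between 8.24 and 8.66. 2 were in M+V 3, where Oasl2 was at 7.91 beside 8.49 to 8.70 in the other M+V arrays and Gbp2 at 8.44 beside 9.14 to 9.42. The last was Ifit3 at 11.48 in control 3, where the other control arrays lay between 9.65 and 10.2.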

How the results depend on the processing

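No member was called in M+V against control under any alternative run, the leave-one-out fits included. Of all tested probes 0 were called in these runs either, except among high bioB arrays, with 2 higher and 12 lower of 21391. The count is therefore not particular to the members. Over the alternative runs the median over the 8 genes ran from -0.22 to 0.08. Small differences of single genes changed sign there: Irf7 was at 0.0583 and Ifit1 at 0.0334 with array weights, Irf7 at 0.0663 and Ifit1 at 0.0325 among low bioB arrays, and Ifit3 at -0.21 among high bioB arrays. Leaving out 1 array gave ranges of -0.178 to 0.0718 for Irf7, -0.28 to 0.16 for Ifit1, -0.0873 to 0.375 for Ifit3, -0.0714 to 0.15 for Usp18 and -0.149 to 0.00600 for Bst2.

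In M+V against 4 weeks the count of members called was 1, and it was 0 without a filter, with the 25th percentile filter, with the 75th percentile filter (3 members tested, without Oasl2), with the methods' t-test, with the bioB block and among high bioB arrays, 2 with array weights, which added Irf7, and 0 to 2 when 1 array was left out. The calls over all tested probes moved too. They were 445 higher and 684 lower in the main fit, and 1156 and 1329 with array weights. Without a filter they were 98 and 219 of 45037, and with the bioB block 581 and 846. Irf7 was at -0.0279 among high bioB arrays, where M+V 1 was at 7.41 and M+V 2 at 8.35. In control against 4 weeks the count was 0, and it was 1, Irf7, with only the compared groups and with array weights, and 0 to 1 when 1 array was left out. Over all tested probes 79 were called higher and 216 lower in the main fit. The calls were 214 and 437 with only the compared groups, and 376 and 636 with array weights. The medians over the members stayed above 0 in both comparisons with 4 weeks, between 0.17 and 0.46 for M+V and between 0.26 and 0.48 for control. The cause of these changes was not tested, except that fewer probes tested or fewer arrays follow from the setting.

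The deviations of arrays with the same number in different groups correlated with a median of 0.0126 over 15 pairs, 6 of them over 0.1, so the numbers were not taken as a pairing. With the replicate block the count was 0 in M+V against 4 weeks, Oasl2 being at 0.79 (limma adjusted p = 0.106), and 0 in the other comparisons. With the replicate block 3 pathway genes rose and 1 fell in M+V against 4 weeks and 0 in control against 4 weeks. Of all tested probes 231 were called higher and 479 lower in the first of these comparisons, and 46 and 120 in the second.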
